A study of Mus musculus with 5 samples.

Results

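The genes described here mark the surface ectoderm of the limb bud, the epithelial sheet that covers its mesenchyme and thickens at the tip into the apical ectodermal ridge. They are 31 genes chosen by name for their roles in epithelium and epidermis (keratins, adhesion proteins, claudins, desmosome proteins, transcription factors, splicing factors, trafficking proteins, and a membrane protease with its inhibitors), and all 31 were found among the 23284 gene symbols of the count tables. RNA was measured in 5 libraries of mouse forelimb. One library came from CD1 forelimb buds at embryonic stage E10.5, with no mutant allele named and no number of embryos given. The other 4 came from the micro-dissected distal forelimb at E11.5, on a mixed C57BL/6 and CD1 background. Of these, 2 were wild type and 2 carried loss-of-function alleles of both genes, Hoxa13-/-;Hoxd13-/-, and are called mutant here. The 2 libraries of a genotype came from independent pools, and the labels give N = 4 for the pooled tissue. A neomycin cassette interrupts the coding region of Hoxa13 and a lacZ reporter sits within exon 1 of Hoxd13. The labels name no promoter or Cre that would limit the loss to one cell type. Between E10.5 and E11.5 the stage, the dissected part and the strain label changed together and cannot be told apart.

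Surface ectoderm begins as a simple epithelium with keratins 8 and 18 and later forms a basal layer with keratins 5 and 14. Its cells are held together by cadherins, claudins and desmosomes, and the grainyhead-like factors and the ESRP splicing factors maintain the epithelial programme. In the limb, ectoderm and ridge exchange signals with the mesenchyme, where Hoxa13 and Hoxd13 are expressed in the distal part that forms the digits.

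Reads counted in genes came to between 45115494 and 84172202 per library, and the 31 genes together took between 0.0504% and 0.0870% of them. Levels are given as TMM-scaled CPM, read counts divided by library size after trimmed-mean scaling over the 5 libraries. The smallest count of any of the 31 genes in any library was 52 and the largest 10001, so all 31 passed the filter on low counts. Hoxd13 measured 236 and 242 CPM in the wild-type libraries and 45.8 and 38.2 in the mutant libraries, while Hoxa13 measured 48.6 and 46.5 against 46.1 and 38.0. Counts over a whole gene need not drop where a cassette is inserted, so the Hoxa13 level does not check that allele. The defining markers of surface ectoderm were present in every library: Epcam lay between 47.0 and 55.4 CPM, Cdh1 between 24.5 and 27.2, and Trp63, the p63 gene of stratified epithelium, between 36.6 and 43.8. The 12 markers of limb mesenchyme summed to between 2390 and 2933 CPM. The 8 markers of yolk sac endoderm, another source of keratin 8 and 18, summed to between 3.08 and 3.79 CPM at E11.5 and to 5.14 at E10.5. Of these, Afp and Apoa4 had no count in any E11.5 library, while Rbp4, which other tissues also express, lay between 1.38 and 1.86 CPM in all 5 libraries, in the range of the lowest ectoderm genes. Since whole tissue was measured, fewer ectoderm cells and less RNA per ectoderm cell cannot be told apart.

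At E11.5, 5 of the 31 ectoderm genes were lower in the mutant and none was higher. Those that fell were the cadherin gene Cdh3, the keratin genes Krt17, Krt8 and Krt14, and the protease inhibitor gene Spint1. They fell by between 1.34-fold (Krt14) and 1.99-fold (Krt17). The other 26 genes, among them Epcam, Cdh1, Krt5, all 4 claudins and Esrp1, did not pass the test. Rose and fell are used for an adjusted p below 0.05 in the edgeR quasi-likelihood test, with Benjamini-Hochberg adjustment over all 16166 genes tested. By that rule 3.34% of all genes fell and 3.82% rose. At an unadjusted p below 0.05, 8 of the 31 were lower and 0 higher, beside 9.58% and 9.79% of all genes tested. The median log2 fold change of mutant over wild type was -0.06 over the 31 genes and -0.00082 over all genes tested, and 20 of the 31 values were below 0. In 12 of the 31 both mutant libraries lay below both wild-type libraries and in 4 both lay above, beside 25.3% and 24% of all genes tested.

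For 4 of the 5 genes that fell, a partner or neighbour among the 31 did not pass the test. Nor did 26 of all 31 genes and 15009 of the 16166 genes tested. The pairs are Krt8 with Krt18, Krt14 with Krt5, Cdh3 with Cdh1 and Spint1 with Spint2. Keratins work as pairs of a type II and a type I protein, and Krt8 and Krt18 code for such a pair and lie next to each other on chromosome 15. Cdh3 and Cdh1 lie next to each other on chromosome 8. Spint1 and Spint2 code for related inhibitors of the same membrane proteases but lie on chromosomes 2 and 7. The start regions of 2 of these pairs (RefSeq, build GRCm38.p6) are shown, in each of which 1 gene fell and the other did not pass the test. Those of Krt14 and Krt5 held none of the motifs described below and are left out. Each region shown runs from 250 bases before to 50 bases after the annotated start. Capitals mark a match to TATAAA on either strand in Krt8, and the match to the AP-2 motif GCCNNNGGC in the other 3.
Krt8 promoter (chr15:102004293-102004592, minus strand): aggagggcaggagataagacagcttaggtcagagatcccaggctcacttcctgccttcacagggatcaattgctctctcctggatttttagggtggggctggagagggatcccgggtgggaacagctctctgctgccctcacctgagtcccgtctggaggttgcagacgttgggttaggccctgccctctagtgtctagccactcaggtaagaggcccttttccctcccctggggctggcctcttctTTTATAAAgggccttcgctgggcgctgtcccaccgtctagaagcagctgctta
Krt18 promoter (chr15:102027966-102028265, plus strand): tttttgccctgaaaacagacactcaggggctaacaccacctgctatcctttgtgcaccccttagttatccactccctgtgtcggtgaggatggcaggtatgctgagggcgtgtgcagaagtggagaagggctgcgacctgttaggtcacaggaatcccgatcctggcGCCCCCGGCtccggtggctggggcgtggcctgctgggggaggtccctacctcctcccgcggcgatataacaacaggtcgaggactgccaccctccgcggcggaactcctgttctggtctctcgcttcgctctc
Spint1 promoter (chr2:119237110-119237409, plus strand): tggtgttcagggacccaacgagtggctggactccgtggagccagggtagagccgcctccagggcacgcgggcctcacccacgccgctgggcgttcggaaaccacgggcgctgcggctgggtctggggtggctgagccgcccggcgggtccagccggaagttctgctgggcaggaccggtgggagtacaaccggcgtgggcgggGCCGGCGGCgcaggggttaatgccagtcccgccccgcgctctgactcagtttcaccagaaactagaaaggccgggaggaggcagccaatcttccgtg
Spint2 promoter (chr7:29281928-29282227, minus strand): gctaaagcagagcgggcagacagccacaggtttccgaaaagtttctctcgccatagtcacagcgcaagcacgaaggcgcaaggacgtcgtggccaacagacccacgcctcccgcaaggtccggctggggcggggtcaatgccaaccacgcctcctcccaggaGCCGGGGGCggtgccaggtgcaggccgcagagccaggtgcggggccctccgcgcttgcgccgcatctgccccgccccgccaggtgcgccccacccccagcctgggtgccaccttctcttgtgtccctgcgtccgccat

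Among 18 of the 31 genes with a start region in that table, Krt8 was the single one with TATAAA (5.56%, beside 13.6% of all 32851 start regions), and in it the matches on the 2 strands overlap across the start. The AP-2 motif, bound by the factor family of Tfap2c, was in 6 of 18 (33.3%, beside 16.6% of all): Cldn3, Dsp, Grhl1, Krt18, Spint1 and Spint2. The GC box GGGCGG was in 11 of 18 (61.1%, beside 35.7%). The median GC content was 59.8% over the ectoderm genes' regions and 52.7% over all, and both of these motifs are GC-rich. No match to the grainyhead-like motifs AACCGGTT and AACNNGGTT (0.146% and 1.84% of all regions), nor to CAATAAA and TCGTAAA, sequences bound by HOX13 proteins (4.6% and 0.597%), lay in any of the 18. Both strands were searched, and the fallen genes Krt8, Krt14 and Spint1 are among the 18. The fallen genes Cdh3 and Krt17 had no start region there, so the search does not cover them. Spint1 and Spint2 share both the AP-2 motif and the GC box. The 18 genes have 20 start regions and were counted by gene, with a match in any region enough, while the background was counted by region. The shares are therefore in unlike units. A match is a run of letters in a short window and shows no binding.

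Cdh3, which encodes P-cadherin, an adhesion protein of basal epithelium, had the smallest adjusted p. It measured 195 and 176 CPM in the wild-type libraries and 113 and 99.96 in the mutant libraries. The groups stood well apart, and the mean fell from 186 ± 13.2 (SD, n = 2) to 107 ± 9.56 CPM (log2 fold change -0.79, SE 0.09, edgeR adjusted p = 0.000286). In people, loss of CDH3 is known to cause ectodermal dysplasia with malformed hands. Per kilobase of exon (GENCODE M21), Cdh3 was also the most abundant of the 31 in wild type, at 42.4 CPM per kb, next to Krt14 at 42.2, and their order is within the spread of the libraries (40.2 to 44.5 and 39.6 to 44.8). Cdh1, the E-cadherin gene beside it, measured 24.5 and 24.6 CPM in wild type and 26.0 and 25.9 in the mutant (0.08, 95% interval -0.14 to 0.30). Reads in Cdh3 per read in Cdh1 were 7.95 and 7.15 in wild type and 4.37 and 3.86 in the mutant. Epcam, an adhesion molecule of all simple epithelia, measured 50.6 and 48.5 CPM in wild type and 47.7 and 55.4 in the mutant, with overlapping groups (0.06, 95% interval -0.16 to 0.28).

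**Figure D1:**
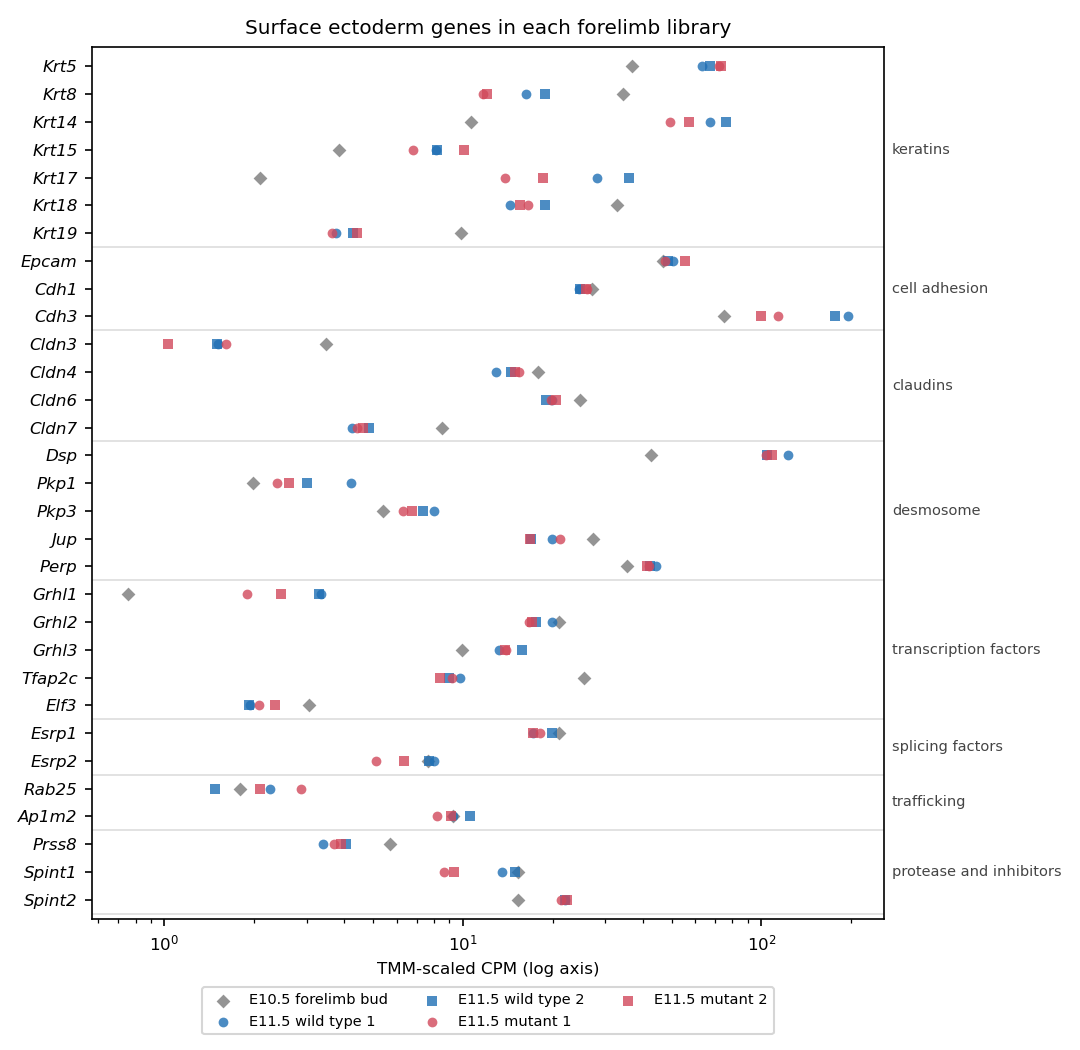
Level of each of the 31 surface ectoderm genes in each of the 5 libraries, in TMM-scaled CPM on a log axis, ordered by role. Each point is 1 library. The mutant points of Krt8, Krt14, Krt17, Cdh3 and Spint1 lie to the left of both wild-type points, while Epcam, Cdh1, Cldn6 and Krt19 overlap or nearly touch.

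The keratins split by gene. Krt17, a keratin of stressed and developing epidermis and its appendages, had the largest fold change: 28.2 and 36.1 CPM in wild type against 13.9 and 18.5 in the mutant. The mutant libraries were both below the wild-type libraries, and the mean fell from 32.2 ± 5.59 to 16.2 ± 3.29 CPM (-0.99, SE 0.16, edgeR adjusted p = 0.00199). Krt14, the type I keratin of basal cells, measured 67.2 and 76.1 CPM in wild type and 49.4 and 57.3 in the mutant (-0.42, SE 0.11, adjusted p = 0.0340). Its type II partner Krt5 went the other way without passing the test, with 63.0 and 67.2 CPM in wild type and 72.3 and 73.3 in the mutant (0.17, 95% interval -0.03 to 0.36). Reads in Krt14 per read in Krt5 were therefore 1.07 and 1.13 in wild type and 0.683 and 0.781 in the mutant, with no overlap.

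Krt8, the type II keratin of simple epithelium, measured 16.2 and 18.9 CPM in wild type and 11.7 and 12.1 in the mutant (-0.56, SE 0.13, edgeR adjusted p = 0.0206). Krt18, its partner, measured 14.4 and 18.8 against 16.6 and 15.6, so the mutant libraries lay between the wild-type libraries (-0.05, 95% interval -0.36 to 0.26). The Krt8 to Krt18 read ratio was 1.13 and 1.0 in wild type and 0.705 and 0.775 in the mutant. Krt15, a type I basal keratin, measured 8.15 and 8.16 CPM in wild type against 6.83 and 10.1 in the mutant, and the 2 mutant libraries fell on either side of wild type. Krt19, a type I keratin of simple epithelium next to Krt15 on chromosome 11, overlapped as well, with 3.76 and 4.27 CPM against 3.63 and 4.40. Krt14 and Krt17 lie in that same chromosome 11 cluster with Krt16 between them, and Krt9 lies between Krt19 and Krt14. Krt16 was not called, at 0.212 and 0.317 CPM in wild type and 0.128 and 0.158 in the mutant, levels too low for a contrast with its neighbours.

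**Figure D2:**
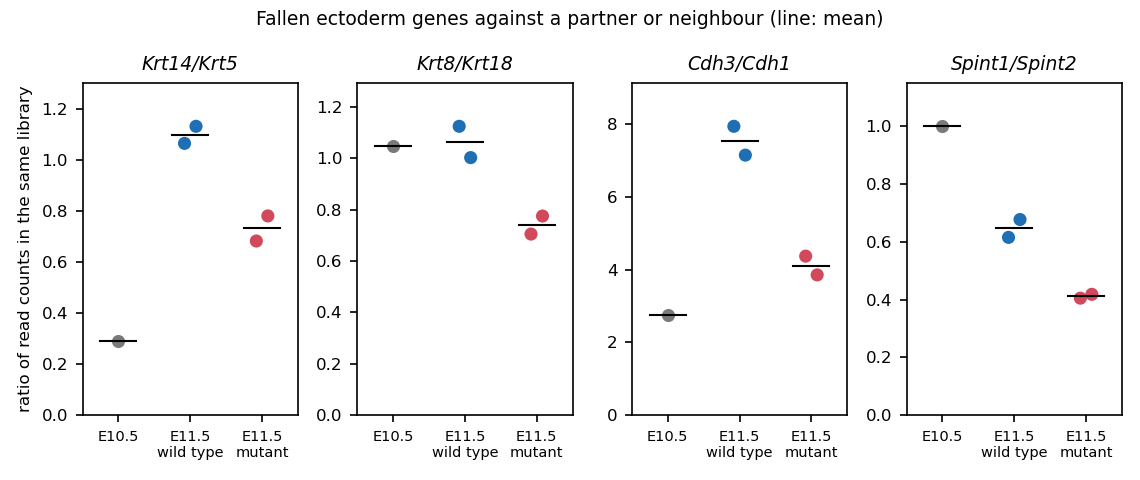
Reads in each of 4 fallen genes divided by reads in a partner or neighbour gene of the same library, by group, with each point a library and the line the mean. In all 4 panels both mutant libraries lie below both wild-type libraries, for example 0.411 ± 0.00937 against 0.646 ± 0.0437 (SD, n = 2) for Spint1 over Spint2. Each panel sets a gene that fell over one that was not called, so this order follows largely from the calls.

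Spint1 and Spint2 encode HAI-1 and HAI-2, membrane-bound inhibitors of the serine proteases matriptase and prostasin, and Prss8 encodes prostasin itself. Spint1 measured 13.5 and 14.9 CPM in wild type and 8.64 and 9.32 in the mutant, and the mean fell from 14.2 ± 1.03 to 8.98 ± 0.483 CPM (-0.66, SE 0.13, edgeR adjusted p = 0.0114). Spint2 measured 21.9 and 22.1 CPM in wild type and 21.3 and 22.3 in the mutant, with a 95% interval of -0.24 to 0.23 around a log2 fold change of -0.0046. Prss8 measured 3.40 and 4.06 against 3.69 and 3.91 CPM (0.03, 95% interval -0.40 to 0.47). With 2 libraries against 2, an exact permutation test of any of the read ratios above could not give a two-sided p below 0.333, so the ratios are descriptions. Each also sets a gene that fell over one that was not called, so a lower mutant value follows largely from the calls.

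Some of these calls ended when 1 library was left out. Each such fit sets 1 library of a genotype against 2, so it also has less power. The calls of Cdh3 and Krt17 held without any 1 library. With mutant replicate 1 left out, Krt8, Krt14 and Spint1 were no longer called. Their log2 fold changes were then -0.53, -0.32 and -0.60. Without wild-type replicate 2, Krt8 (-0.43) and Krt14 (-0.32) were no longer called. Counting also matters for Krt8: 29.7% of its 50-base windows recur in other GENCODE transcripts, most of them in the pseudogene Krt8-ps (26.9%), so its value is uncertain where reads could not be placed. The share was 13.9% for Krt14, mostly with Krt16, 12.2% for Krt5, 3.99% for Krt17 and 0 for Cdh3 and Spint1.

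Desmosomes, the junctions that anchor keratin filaments, showed no called change. Dsp, the plaque protein desmoplakin, measured 123 and 104 CPM in wild type and 104 and 108 in the mutant, and the groups overlapped (-0.10, 95% interval -0.30 to 0.11). The plakophilin gene Pkp1 measured 4.22 and 3.0 CPM in wild type and 2.38 and 2.61 in the mutant (-0.52, SE 0.23, edgeR adjusted p = 0.241). Its 95% interval, -1.03 to -0.02, is wide and, before adjustment, excludes 0. Pkp3, another plakophilin, had -0.23, Jup, the gene of plakoglobin, 0.05, and Perp, a tetraspan desmosome protein under p63 control, -0.05. For 3 of the 5 desmosome genes, Pkp1, Pkp3 and Perp, both mutant libraries lay below both wild-type libraries. Of all genes tested 25.3% had that order. The claudins, which seal tight junctions, lay between -0.17 (Cldn3) and 0.15 (Cldn4). Cldn6 measured 19.9 and 19.0 CPM in wild type and 19.7 and 20.5 in the mutant (0.05, 95% interval -0.18 to 0.29), and Cldn7 had -0.0024.

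Of the transcription factors, none passed the test. Grhl2, the grainyhead-like factor that activates epithelial junction genes, measured 19.9 and 17.6 CPM in wild type and 16.6 and 17.0 in the mutant (-0.15, 95% interval -0.40 to 0.11). Grhl1, which controls desmosomal cadherins in epidermis, measured 3.35 and 3.30 CPM in wild type and 1.90 and 2.45 in the mutant. Its groups did not overlap, but the adjusted p was 0.152 by edgeR (log2 fold change -0.61, SE 0.23). Grhl3, the grainyhead-like factor of barrier formation, had -0.06, Tfap2c, an AP-2 factor of early ectoderm, -0.09, and Elf3, an ETS factor of epithelia, 0.20. Esrp1, which directs epithelial splice forms, measured 17.2 and 19.9 CPM in wild type and 18.1 and 17.2 in the mutant (-0.06, 95% interval -0.33 to 0.20). Its relative Esrp2 measured 8.0 and 7.67 against 5.11 and 6.36 CPM, with no overlap (-0.45, SE 0.17, edgeR adjusted p = 0.156). Neither trafficking gene passed the test. Ap1m2, an adaptor subunit of basolateral sorting, had a log2 fold change of -0.19 with both mutant libraries below wild type. Rab25, a small GTPase of recycling endosomes, had 2.25 and 1.48 CPM in wild type and overlapping values of 2.86 and 2.09 in the mutant.

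**Figure D3:**
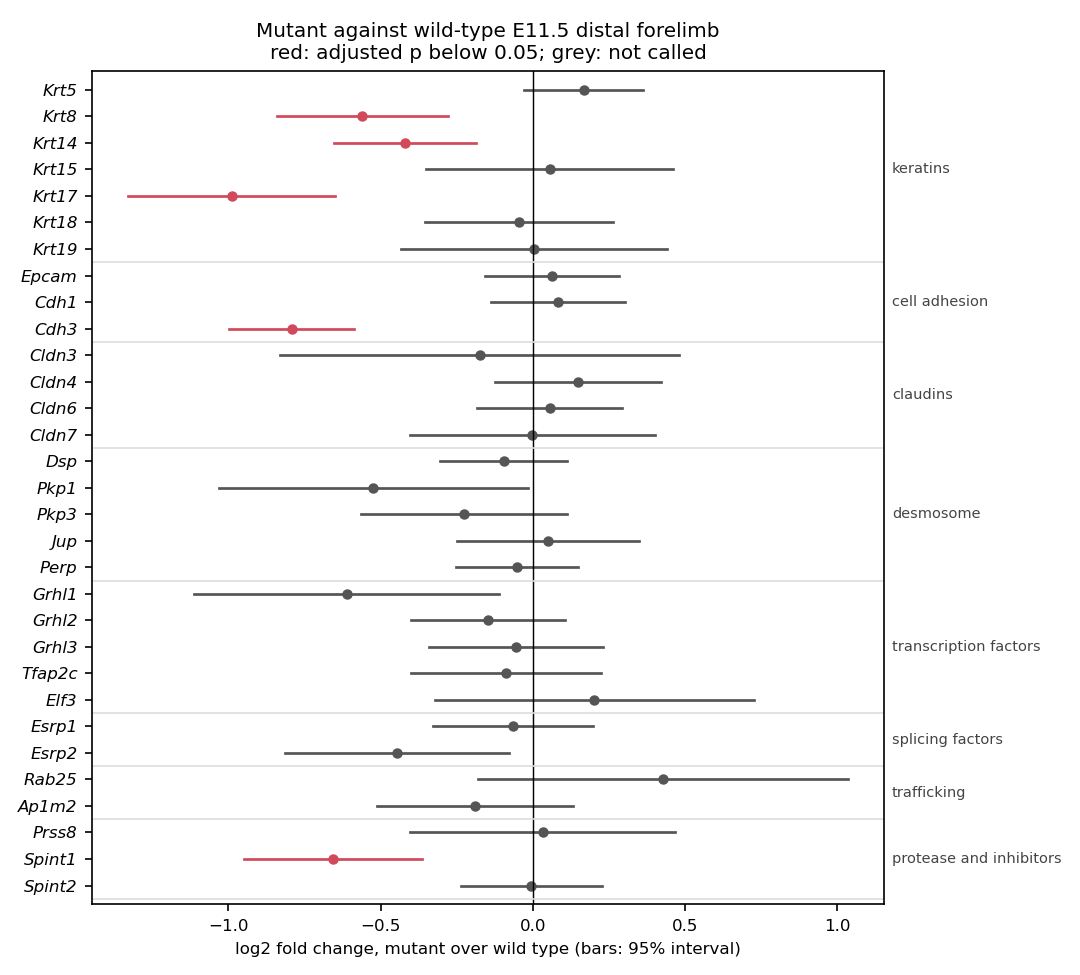
Log2 fold change of mutant over wild type at E11.5 with its 95% interval for each of the 31 genes, from the edgeR fit. The 5 genes in red fell, from -0.42 (Krt14) to -0.99 (Krt17), and the 26 in grey lie between -0.61 and 0.43.

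For 20 of the 26 the 95% interval excluded a change of 1.5-fold in either direction, and for 23 it excluded 2-fold. Summed over the 31 genes, the level was 833 and 821 CPM in the wild-type libraries and 690 and 704 in the mutant libraries. Cdh3 alone made up 60.5% of the difference of 130 CPM, Krt14 14.1% and Krt17 12.3%. The log2 ratio of the sums was -0.25, and -0.12 without Cdh3.

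The stage comparison had 1 library at E10.5 and therefore no test. A gene counts as lower or higher at E10.5 where both wild-type E11.5 libraries lay 2-fold or more to the other side (TMM-scaled CPM, log2, prior count 2). By that rule 6 of the 31 genes were lower at E10.5 and 3 higher, beside 12.5% and 4.06% of 16339 genes compared. Krt17 had 2.09 CPM at E10.5 against 28.2 and 36.1 at E11.5, a 15.1-fold difference, and Krt14 had 10.7 against 67.2 and 76.1, a 6.68-fold difference. Grhl1 (0.756 against 3.35 and 3.30), Dsp (42.8 against 123 and 104), Cdh3 (74.9 against 195 and 176) and Krt15 (3.85 against 8.15 and 8.16) were the others. Krt5 was at 36.7 CPM against 63.0 and 67.2, short of 2-fold.

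The 3 genes higher at E10.5 were Tfap2c, Krt19 and Cldn3. Tfap2c had 25.5 CPM at E10.5 against 9.81 and 8.97 at E11.5, and Krt19 had 9.85 against 3.76 and 4.27. Cldn3 had 3.48 CPM at E10.5, a log2 difference of 1.19. Krt8 (34.4 against 16.2 and 18.9) and Krt18 (32.8 against 14.4 and 18.8) passed 2-fold against wild-type replicate 1 but not against replicate 2, as did Cldn7. Reads in Krt8 per read in Krt5 were 0.935 at E10.5 and 0.257 and 0.281 in wild type at E11.5. On the lower side Pkp1 passed 2-fold against wild-type replicate 1 (log2 difference -1.08) but not against replicate 2 (-0.59). The other genes that passed in neither direction ranged on both sides of 0, from -0.54 for Grhl3 to 0.65 for Elf3. Among them were Spint2 (-0.52), Perp (-0.29), Epcam (-0.08), Cdh1 (0.14), Jup (0.57) and Prss8 (0.62). Scaling matters here: with library totals in place of TMM the median of all genes shifted to -0.22 on the log2 scale, and of the genes higher at E10.5 only Tfap2c stayed past 2-fold, while Krt5 joined the lower genes. Markers of other cell types differed between the stages as well. At E10.5, 7 of 8 macrophage genes and 4 of 8 muscle genes were lower, among them Myog, Actc1 and Ttn with log2 differences of -5.87, -5.83 and -5.93, and 1 muscle gene, Pax3, was higher. Of 7 erythroid genes 2 were higher, Hba-x by 2.20 and Hbb-bh1 by 1.71 on the log2 scale. Among yolk sac genes Apob was higher, with 2.27 CPM against 0.191 and 0.282, and Afp had 0.165 CPM against no count. The part of these cell types in the ectoderm values at E10.5 was not tested.

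**Figure D4:**
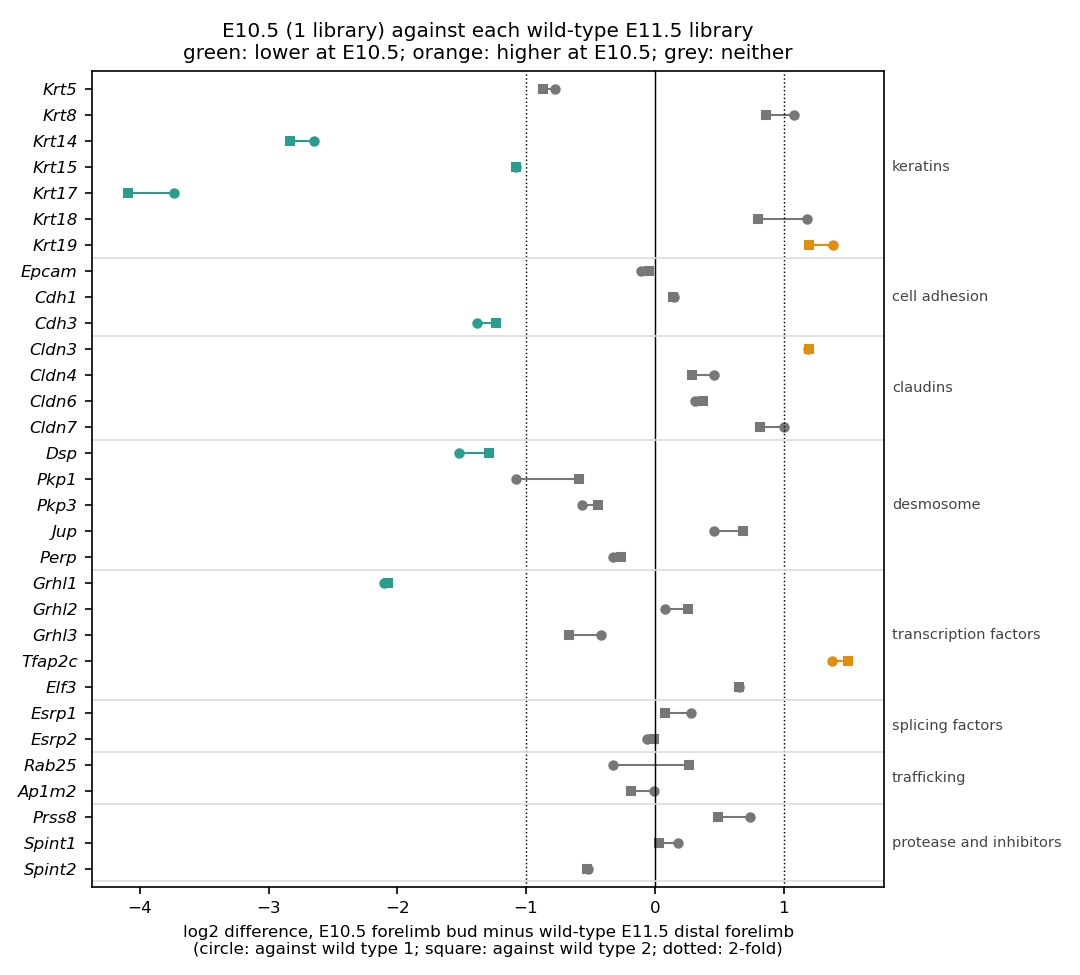
Log2 difference of the E10.5 library from each wild-type E11.5 library for the 31 genes, on TMM-scaled CPM, with dotted lines at 2-fold. Krt14, Krt15, Krt17, Cdh3, Grhl1 and Dsp lie beyond the left line against both libraries, and Krt19, Cldn3 and Tfap2c beyond the right line.

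The 3 groups side by side separate the genes that fell. For Cdh3, Krt14 and Krt17 the mutant libraries lay between E10.5 and wild type. For Krt8 the mutant (11.7 and 12.1 CPM) lay below wild type, while E10.5 (34.4) lay above it. Spint1 was at 15.3 CPM at E10.5, close to its wild-type level at E11.5 and above both mutant libraries. Both comparisons use the same wild-type libraries, so a shared direction between them is not independent.

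Other epithelial genes, outside the 31, were counted in the same fit. Of 12 other epithelial transcription factors none was called (median -0.15, 10 of 12 below 0). Trp63 measured 39.4 and 41.9 CPM in wild type and 37.9 and 36.6 in the mutant (-0.12, 95% interval -0.33 to 0.09). Of 18 other junction and polarity genes 1 fell, Lsr, which encodes a protein of tricellular junctions, from 25.2 ± 0.673 to 17.9 ± 0.797 CPM (-0.49, SE 0.11, edgeR adjusted p = 0.0170). That call ended without mutant replicate 2 (0.145). Among genes of basement membrane and anchorage, Itga6, the integrin subunit that binds laminin at the basal face, fell from 71.1 ± 1.65 to 50.5 ± 0.923 CPM (log2 fold change -0.49, edgeR adjusted p = 0.0060). The call of Itga6 ended without mutant replicate 1, at a log2 fold change of -0.47. In this list the wild-type libraries differed from each other more than the groups did for Lama5, a laminin chain, with 86.7 and 34.3 CPM against 58.5 and 57.5 in the mutant. The split was not limited to Lama5. Summed over the 11 genes of the list, the wild-type libraries had 867 and 623 CPM and the mutant libraries 654 and 681.

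Among the epithelial lists other than the ridge, 3 genes rose. Krt23, a type I keratin, measured 0.318 and 0.529 CPM in wild type and 2.73 and 3.85 in the mutant (log2 fold change 2.93, SE 0.33, edgeR adjusted p = 0.000202). Anxa8, an annexin of stratified epithelia, measured 0.700 and 0.776 against 3.08 and 2.86 (2.01, SE 0.26, adjusted p = 0.000541). They were the 2 called among 6 tested keratin and periderm genes, and the mutant libraries were severalfold higher in both. Wnt10b, a WNT ligand of ectoderm and ridge, measured 2.14 and 2.06 CPM against 6.28 and 6.93 (1.66, SE 0.19, adjusted p = 0.000240). Among the 12 tested epithelial signals and receptors it was the single gene that rose, and Fgfr2, whose epithelial form receives mesenchymal FGF10, fell (-0.44, SE 0.10, adjusted p = 0.0154), a call that ended without mutant replicate 1 (0.105). Fgfr2 is also expressed in mesenchyme, so its value is not that of ectoderm alone.

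The ridge, the specialised part of this ectoderm, changed in both directions: of 15 ridge genes 3 rose and 3 fell. Fgf4, a growth factor of the posterior ridge, measured 0.488 and 0.353 CPM in wild type and 7.07 and 6.79 in the mutant (log2 fold change 4.06, SE 0.25, edgeR adjusted p = 1.8e-06). Fgf8, the growth factor of the whole ridge, measured 11.1 and 8.99 against 20.3 and 21.3, and Fgf17 had 1.42. Msx2, a homeobox factor of ridge and mesenchyme, fell from 46.5 and 40.6 CPM to 25.1 and 20.5, the ridge factor Sp6 from 13.5 and 10.2 to 7.23 and 6.20, and Dlx2 by 1.48 on the log2 scale. The edgeR adjusted p of Fgf17 was 0.0680 without mutant replicate 1, and that of Dlx2 was 0.0557 without mutant replicate 2 and 0.0633 without wild-type replicate 1. Markers of other cell types also differed between the genotypes. All 7 erythroid genes were higher in both mutant libraries than in both wild-type libraries (1 called), with sums of 2946 and 2878 CPM against 2341 and 2315. Of 8 genes of neurons and Schwann cells 2 fell, Tubb3 and Stmn2, with sums of 19.3 and 19.9 against 39.8 and 45.3. Of 8 macrophage genes 2 rose, Mrc1 (0.62) and Lyz2 (1.19), with sums of 75.1 and 72.2 against 47.5 and 62.7. Of 8 muscle genes 1 fell, Actc1 (-0.87), with overlapping sums of 273 and 423 against 505 and 422. None of 8 endothelial genes was called, with sums of 225 and 205 against 188 and 203. Of 12 mesenchyme genes 1 rose and 2 fell, with sums of 2933 and 2871 against 2706 and 2798. The part of these cell types in the ectoderm values was not tested. The levels of the surface ectoderm markers Epcam, Cdh1, Krt5, Krt14, Trp63, Grhl2 and Esrp1 in the same libraries are given above. Of these Krt14 fell and the others were not called. Both mutant libraries lay below both wild-type libraries for Grhl2 and Trp63, and above them for Cdh1 and Krt5.

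**Figure D5:**
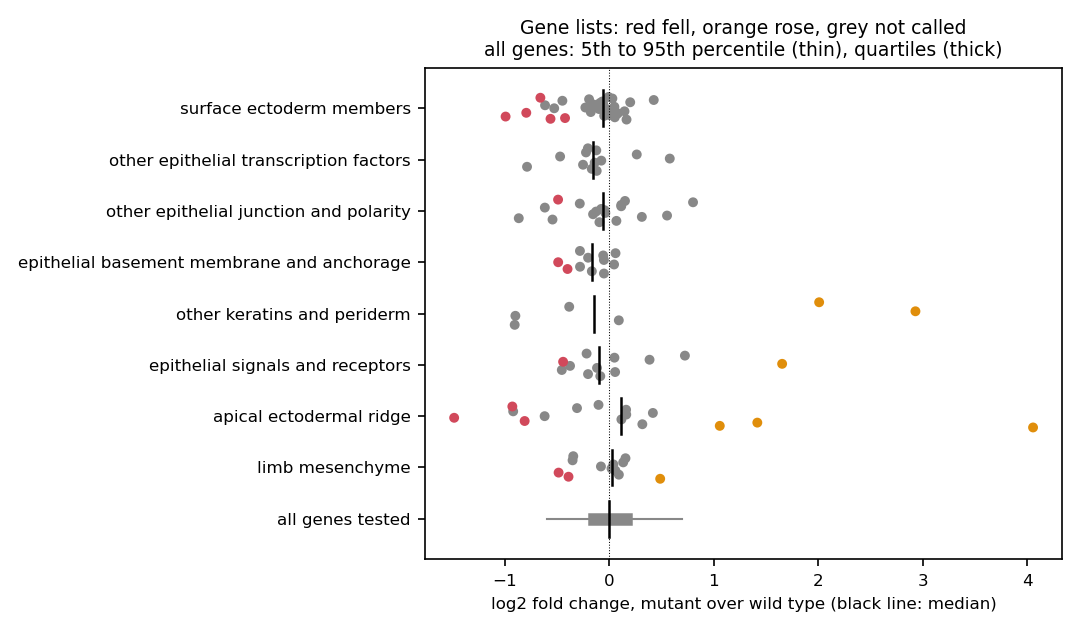
Log2 fold change of mutant over wild type for the 31 surface ectoderm genes and for other lists, with each point a gene, black lines the medians, and percentiles of all genes tested at the bottom. The median lies at -0.06 for the surface ectoderm genes and at -0.15 for other epithelial transcription factors, and Krt23, Anxa8 and Wnt10b stand to the right.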

How the data were processed

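The deposited files hold the authors' raw counts of reads per gene. The submitters' processing notes name TopHat2 2.0.13, Cufflinks 2.1.1, HTSeq, SAMtools and the build mm9, without roles. The strand setting and annotation of the counting (not given in the sources used here) are unknown, so genes with exons overlapping another gene in GENCODE M21 (Krt5, Krt8, Cldn3, Dsp, Grhl2, Elf3, Esrp2 and Prss8) are uncertain. Libraries were stranded and depleted of ribosomal RNA, per the labels. The 5 HTSeq total lines of each table were left out. Entries assigned to no feature took between 24.3% and 39.6%.

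The 4 E11.5 libraries were fitted with edgeR 4.0.16 (R 4.3.3) after filterByExpr (minimum count 10, minimum total 15) and TMM scaling, by the quasi-likelihood test with genotype alone. Intervals are 95% intervals of the log2 fold change. p-values and intervals rest on 2 pools per genotype, with the spread of each gene drawn towards that of all genes tested. The fit was tested on simulated data. Alternatives were DESeq2 1.42.0, other scalings, no filter, a replicate block and leaving out each library. The members and all lists (174 genes) were chosen with earlier results of these data known. Every member is named, with full values for called members, the 3 uncalled ones of smallest adjusted p and the most abundant of each role. From other lists, called genes are named, up to 4 per list, and some results are not reported here. Other members given in full, and Trp63, Lama5, Fgf17, Dlx2 and the markers named at E10.5, were named after their values were seen. Scaling E10.5 by library totals, the HOX13 motifs and the 50-base windows, used in place of protein identity, were added after seeing the data. No count was read by coordinate.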

Additional observations from a re-analysis of the deposited data

How the results depend on the processing

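Under the other scalings, DESeq2, the newer quasi-likelihood estimate, no filter, the fit with all 5 libraries and the replicate block, the number of ectoderm genes that fell was 5 each time and the number that rose 0. Leaving out 1 library gave between 2 and 5 that fell and 0 that rose, and no uncalled ectoderm gene became called in any alternative. Over all genes, leaving out 1 library gave between 373 and 905 that fell and between 410 and 1113 that rose, and without the filter 959 rose. The replicate numbers share only a number: the correlation of the replicate differences between genotypes was -0.045, and the replicate block gave 576 genes that fell and 676 that rose in place of 540 and 617.

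The log2 ratio of summed levels was -0.23 with library totals and -0.12 without Cdh3, the gene of highest count. At E10.5 a 1.5-fold limit called 7 ectoderm genes higher and added Krt5 and Pkp1 to the lower ones. Over all genes that limit called 1697 higher and 3075 lower. With library totals 1 ectoderm gene and 403 of all genes were higher. Leaving out wild-type replicate 1 or 2 gave 3 or 6 ectoderm genes higher at E10.5. The cause of these differences was not tested. The smallest count of an ectoderm gene was 52, and the E10.5 values, from 1 library, carry no error between samples.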
